A study of Homo sapiens with 4 samples.

Results

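The genes described here are 43 genes of autophagy and the lysosome, chosen by symbol from the 58735 genes of the deposited count table. They cover the proteins that start and build the autophagosome, the lipid-conjugated LC3 and GABARAP proteins, the cargo receptors, the TFEB family of transcription factors, and lysosomal membrane proteins, hydrolases and proton-pump subunits. CPM is reads scaled to a common library total, from summed counts for the filter and after TMM scaling for the values below. Of the 43 genes, 42 averaged at least 1 CPM over the 4 libraries, and so stand among the 14585 genes tested. The exception was ULK2, a kinase related to ULK1, with 1 read in Bulk, 1 in Violet and none in Claret or eGFP. Median GC content of the members was 49.6%, beside 48.3% for all genes tested.

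RNA was sequenced from MDA-MB-231, a human triple-negative breast cancer cell line that grows with mesenchymal features. All 4 groups carried the TetOn-H2BeGFP transgene, in which doxycycline switches on a green fluorescent histone, and all were given 5 μg/ml doxycycline for 3 days, stained with the dyes Claret and Violet, and left to divide for 12 days. Dividing cells dilute each label, so the 1% of cells with the most remaining Claret dye, H2B-eGFP or Violet dye were sorted as slow-cycling cells, while Bulk cells passed through no fluorescence gate. Each group (Bulk, Claret, eGFP and Violet) is 1 library, and whether the transduced line is 1 clone is not given in the sources used here. No difference below has a replicate check.

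Groups follow the sample titles, whose names also head the columns of the deposited tables. In each sample the treatment field names another sort: Claret for the library titled Bulk, eGFP for that titled Claret, Violet for that titled H2B-eGFP, and un-gated cells for that titled Violet. The proliferation gene TOP2A stood at 902 CPM in the library titled Bulk, against 200.1 (Claret), 156 (eGFP) and 211 (Violet), and MKI67 had 6778 reads there against 995, 689 and 915. Every direction given below rests on the titles, and 3 values in a row for the slow-cycling libraries are always in the order Claret, eGFP, Violet. The mesenchymal markers VIM (794 to 1089 CPM) and CD44 (337 to 399.9 CPM) were present in every library, PGR and KRT5 had 0 reads in each (which allows up to 0.177 to 0.191 CPM), and ESR1 had 3 to 7 reads. The marker list also held ERBB2 and EPCAM, whose levels are not given here, so the list is read only in part. Summed counts were 15508179 to 16976909 per library. Mitochondrial genes took 4.18% of reads in Bulk and 5.06% to 5.48% in the slow-cycling libraries. Whether proliferation or mitochondrial share has a part in the differences below was not tested, and in bulk RNA fewer cells of a type cannot be told apart from less RNA per cell.

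Autophagy wraps cytoplasm in a double-layered membrane, the autophagosome, and delivers it to the lysosome for breakdown. The ULK1 kinase complex starts the process, a lipid kinase complex with Beclin 1 marks the site, and an enzyme cascade attaches LC3 and GABARAP proteins to the growing membrane, where cargo receptors dock. The lysosome is acidified by the V-ATPase proton pump and digests its content with cathepsins and other hydrolases. TFEB, TFE3 and MITF bind a short DNA word, the E-box CACGTG, in the promoters of many of these genes, and are held in the cytoplasm by the growth kinase mTOR when nutrients are plentiful.

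The genes did not move as 1 block. MAP1LC3B, GABARAPL1, GABARAPL2, ULK1, WIPI1, the cargo receptors NBR1 and CALCOCO2, TFEB and cathepsins B and L were higher by 1.5-fold or more in each slow-cycling library, while the LC3-conjugating enzyme ATG3, the calcium channel gene MCOLN1 and the hydrolase gene GLA were lower by as much. A gene was called when the exact binomial test on its reads gave a Benjamini-Hochberg adjusted p under 0.05 over all 14585 genes, together with a log2 ratio of 1 or more, or -1 or less. That test compares 2 libraries, not 2 conditions. By this rule 4 of the 42 members were higher in Claret than in Bulk (all genes: 11.2%), 5 in eGFP (11.9%) and 4 in Violet (11.6%). None was lower in Claret (all genes: 6.72%) or in eGFP (7.64%), and 2 were lower in Violet (6.91%). Each of these shares is near or under the background, so strong change was no more frequent among the members than in the transcriptome at large.

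A looser rule of 1.5-fold with the same adjusted p took in 10 members higher in Claret (all genes: 19.8%), 12 in eGFP (20.5%) and 11 in Violet (20.8%). It took in 3 members lower in Claret (16.7%), 4 in eGFP (17.9%) and 4 in Violet (16.6%). Out of 42 members, the higher counts lay somewhat above the background share in each comparison, by few genes, and the lower counts lay under it. The members were chosen with earlier results of these data known, so no conclusion about the set is drawn from that excess. The median log2 ratio of the 42 members was 0.21 (Claret), 0.24 (eGFP) and 0.14 (Violet), where all genes had medians of -0.01, -0.01 and 0.01. In each comparison 26 members lay above 0 and 16 below. The 3 comparisons share the Bulk library, so their values are not independent of one another. Together the 43 genes took 0.372% of reads in Bulk, 0.482% (Claret), 0.488% (eGFP) and 0.486% (Violet).

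**Figure D1:**
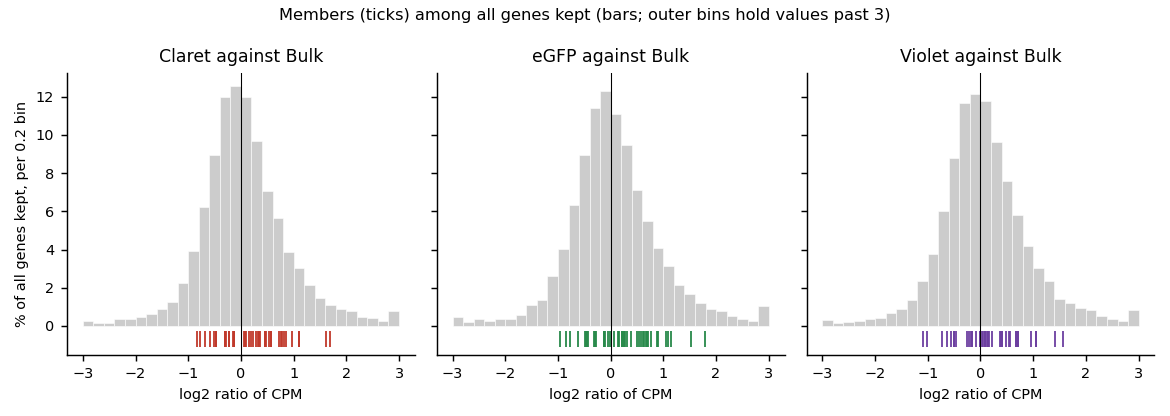
Log2 ratio of CPM against Bulk on the x axis for Claret, eGFP and Violet, with grey bars giving the percentage of all 14585 genes tested in each bin and coloured ticks marking the 42 autophagy and lysosome genes. The ticks lie within the body of the grey distribution, between -1.10 and 1.78, with 26 to the right of 0 in each panel.

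Levels per gene length differed widely between members. In Bulk, the deposited FPKM (reads scaled by gene length and library total) was highest for the cathepsins CTSD (89.5) and CTSZ (88.4), the cargo receptor SQSTM1 (70.8), then CTSB (49.0), CTSL (41.4) and the membrane glycoproteins LAMP1 (37.7) and LAMP2 (31.2). At the other end of the tested genes stood TFEB at 1.5 and GABARAP at 0.511. Cathepsins and SQSTM1 thus headed the order of levels, and the regulator TFEB stood near its foot. The hydrolase genes GLA (14.0), NEU1 (8.70) and HEXA (2.73) stood lower than those cathepsins.

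The ULK1 initiation complex, which receives nutrient signals from mTOR and AMPK, had positive ratios in each of its 4 tested genes, but they were uneven. ULK1 (ENSG00000177169, GRCh38 chr12:131894651-131923167), the kinase itself, stood at 55.3 CPM in Bulk against 109 (Claret), 118 (eGFP) and 114 (Violet). The 3 slow-cycling libraries were all above Bulk and close to each other. Its log2 ratios were 0.98 (95% exact interval of the read ratio 0.86 to 1.10), 1.09 (0.98 to 1.21) and 1.05 (0.93 to 1.17), so that eGFP and Violet passed the 2-fold call and Claret fell just short of it. After a correction for GC content the ratios were 0.89 in eGFP and 0.86 in Violet, under that call. RB1CC1, the scaffold FIP200, had ratios of 0.47, 0.58 and 0.68 and passed 1.5-fold in Violet (0.52 with log2(FPKM + 1), under that rule). The adaptors ATG13 (0.10, 0.13 and 0.13) and ATG101 (0.35, 0.31 and 0.09) passed neither rule.

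The lipid kinase complex showed no call. Its catalytic subunit PIK3C3 had log2 ratios of 0.45 (Claret), 0.25 (eGFP) and 0.37 (Violet), and ATG14, the subunit that directs it to autophagy, had 0.32, 0.28 and 0.22. BECN1, encoding Beclin 1, lay on the other side at -0.23, -0.32 and -0.22. The complex therefore held ratios of both signs, all within 1.5-fold of Bulk.

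Among the readers of the lipid PI3P and the lipid-supply proteins, WIPI1 stood out. WIPI1 (ENSG00000070540, chr17:68420948-68457513) binds PI3P on the forming membrane, and read 24.9 CPM in Bulk against 53.2 (Claret), 55.2 (eGFP) and 51.9 (Violet). Each slow-cycling library was at over 2-fold its Bulk level, with log2 ratios of 1.09 (0.92 to 1.27), 1.15 (0.98 to 1.32) and 1.06 (0.89 to 1.24). With log2(FPKM + 1) the Claret and Violet ratios were 0.99 and 0.93, under the 2-fold call. Of the 31-base words in its transcripts, 30.9% also occur in other genes, mainly in the overlapping ARSG, so some reads may have been lost or shared there. Its relative WIPI2, which recruits the conjugation machinery, was at 0.20, 0.26 and 0.08. ATG2A, a lipid-transfer protein, had 0.45, 0.61 and 0.55 and passed 1.5-fold in eGFP, but not after the GC correction (0.41). The lipid scramblase ATG9A was at -0.48, -0.48 and -0.56, with 35.5% of its words shared with a neighbouring annotation.

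The enzymes that conjugate LC3 to lipid did not follow LC3 itself. ATG3 (ENSG00000144848, chr3:112532509-112562046), the E2-like enzyme that hands LC3 to the lipid, stood at 44.5 CPM in Bulk against 27.8 (Claret), 28.7 (eGFP) and 28.6 (Violet). Bulk was the highest of the 4, and the other libraries were within 1 CPM of each other. The log2 ratios of -0.68 (-0.85 to -0.51), -0.63 (-0.80 to -0.46) and -0.64 (-0.81 to -0.47) passed the 1.5-fold rule in each comparison, although under a 10 CPM filter the eGFP and Violet ratios were both -0.56, under that rule. ATG5 (-0.30, -0.46 and -0.46) and ATG16L1 (-0.31, -0.46 and -0.49), which form the E3-like complex, had negative ratios under 1.5-fold. The E1-like ATG7 (0.15, -0.02 and 0.04) and the ubiquitin-like ATG12 (0.09, 0.15 and -0.01) lay near 0. The median over the 5 enzymes was -0.30 (Claret), -0.46 (eGFP) and -0.46 (Violet), the reverse in sign of the 4 LC3 and GABARAP genes at 1.24, 1.21 and 1.05.

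**Figure D2:**
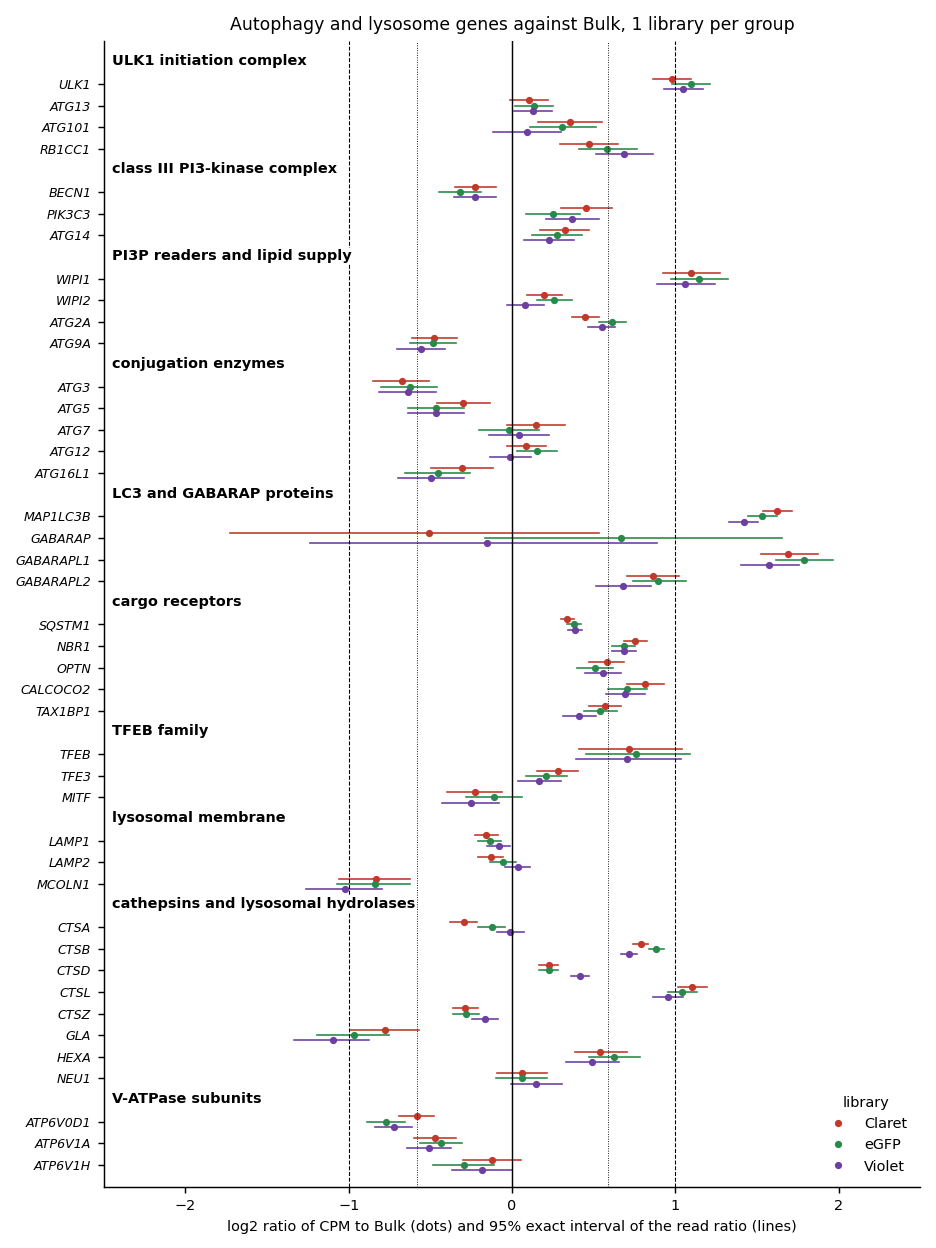
Log2 ratio of CPM against Bulk (dots) with the 95% exact interval of the read ratio (lines) for the 42 tested genes, grouped by role and coloured by library. Dashed lines mark a log2 ratio of 1 in either direction and dotted lines 1.5-fold. The dots of MAP1LC3B, GABARAPL1, ULK1, WIPI1 and CTSL pass the right-hand dashed line in at least 1 library, and those of MCOLN1 and GLA pass the left-hand one in Violet.

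The LC3 and GABARAP genes, whose products coat the autophagosome, held the largest ratios of all members. MAP1LC3B (ENSG00000140941, chr16:87383995-87404779), the LC3 form most used as an autophagy marker, stood at 88.0 CPM in Bulk against 271 (Claret), 254 (eGFP) and 235 (Violet). GABARAPL1 (ENSG00000139112, chr12:10212458-10223130) stood at 22.0, 71.4, 76.2 and 65.7 CPM. In both genes the lowest slow-cycling library was far above Bulk. MAP1LC3B rose by log2 ratios of 1.62 (1.54 to 1.71) in Claret, 1.53 (1.44 to 1.62) in eGFP and 1.42 (1.33 to 1.51) in Violet, and GABARAPL1 by 1.69 (1.52 to 1.87), 1.78 (1.62 to 1.97) and 1.57 (1.40 to 1.76). GABARAPL2 (chr16:75566351-75577881), also called GATE-16, was at 30.4 CPM in Bulk against 55.3, 56.7 and 48.8, with ratios of 0.86, 0.90 and 0.68 that passed the 1.5-fold rule.

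GABARAP itself could not be read in the same way. It had 18 reads in Bulk against 13 (Claret), 30 (eGFP) and 16 (Violet), and its intervals against Bulk ran from -1.73 to 0.53, from -0.17 to 1.65 and from -1.24 to 0.89. All 3 intervals include 0, and 52.3% of its 31-base words also occur in other genes, so its count is uncertain.

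On the per-length scale, the 7 human LC3 and GABARAP genes summed to 35.5 FPKM in Bulk against 94.2 (Claret), 93.4 (eGFP) and 82.7 (Violet). MAP1LC3B made up 47.3% of that sum in Bulk and 54.2%, 51.0% and 52.5% in the slow-cycling libraries. The share of GABARAPL1 was 15.4% in Bulk and 18.6% to 19.9% elsewhere, whereas that of GABARAPL2 was 28.6% in Bulk and 19.1% to 19.9% elsewhere. As counted, the family total was thus higher, with a somewhat different make-up. GABARAPL1 and GABARAPL2 had like levels in the slow-cycling libraries but not in Bulk. GABARAP enters the sum and the shares at 0.338 to 0.828 FPKM, from the uncertain count described above. Any GABARAP reads lost there would change the total and every share. MAP1LC3A and MAP1LC3C, the remaining LC3 genes, had at most 2 and 5 reads in any library.

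**Figure D3:**
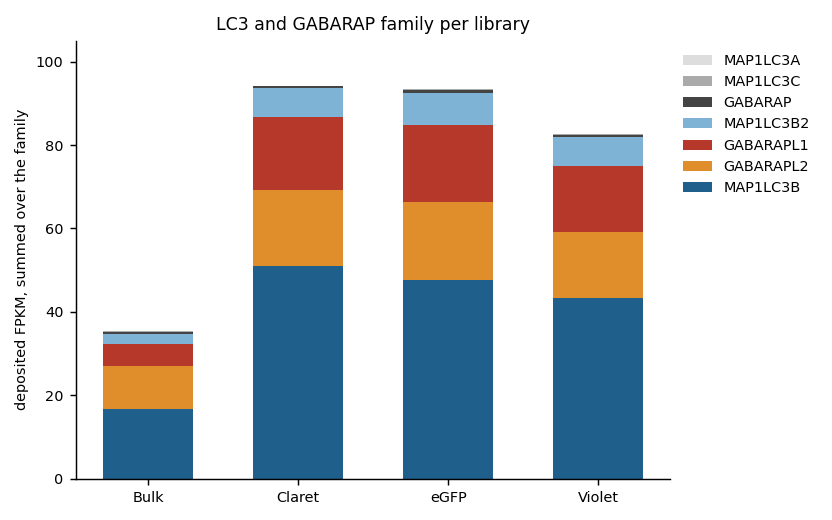
Deposited FPKM of the 7 LC3 and GABARAP genes stacked for each of the 4 libraries, 1 library per bar. The stack reaches 35.5 FPKM in Bulk and 82.7 to 94.2 in the slow-cycling libraries, with MAP1LC3B as the widest layer in each. GABARAP enters the stack at a count that is uncertain.

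All 5 cargo receptors, which tie ubiquitinated or damaged material to LC3, had positive ratios, and none reached a log2 ratio of 1. NBR1 stood at 164 CPM in Bulk against 276, 263 and 263, and CALCOCO2 (NDP52, a receptor for bacteria and mitochondria) at 60.1 against 106, 98.1 and 97.3. Both passed the 1.5-fold rule in each comparison, NBR1 with log2 ratios of 0.75, 0.68 and 0.68 and CALCOCO2 with 0.82, 0.71 and 0.69. OPTN (0.58, 0.51 and 0.56) and TAX1BP1 (0.57, 0.54 and 0.41) did not pass that rule. SQSTM1, encoding p62, had the smallest ratios of the 5, at 0.34 (0.30 to 0.38), 0.38 (0.34 to 0.42) and 0.38 (0.34 to 0.43), and yet the highest level, 534 CPM in Bulk against 675, 695 and 698. The median over the receptors was 0.58 (Claret), 0.54 (eGFP) and 0.56 (Violet).

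Of the TFEB family, TFEB alone passed the 1.5-fold rule, and with log2(FPKM + 1) its ratios of 0.46, 0.49 and 0.43 were under it. TFEB (ENSG00000112561, chr6:41683978-41736259) was weakly expressed, at 8.38 CPM in Bulk against 13.8 (Claret), 14.3 (eGFP) and 13.7 (Violet), with log2 ratios of 0.72 (0.41 to 1.04), 0.76 (0.45 to 1.09) and 0.70 (0.39 to 1.04). TFE3 (chrX:49028726-49043486), at 59.1, 71.8, 68.4 and 66.4 CPM, had ratios of 0.28 (0.16 to 0.40), 0.21 (0.08 to 0.34) and 0.17 (0.04 to 0.30). MITF (chr3:69739435-69968337) went the other way, at 37.8 CPM in Bulk against 32.3, 35.0 and 31.7, with ratios of -0.23 (-0.40 to -0.06), -0.11 (-0.28 to 0.06) and -0.25 (-0.43 to -0.08). Per length, TFE3 was the most abundant of the 3 in Bulk at 14.0 FPKM, followed by MITF at 5.34 and TFEB at 1.5, and that order held in each library. TFEB and its relatives are regulated mainly by their place in the cell, which RNA counts do not measure.

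No lysosomal membrane gene among the members was higher by either rule. LAMP1 and LAMP2, the glycoproteins that line the lysosome, were nearly level, with ratios of -0.16, -0.14 and -0.08 for LAMP1 and -0.13, -0.05 and 0.03 for LAMP2. MCOLN1 (ENSG00000090674, chr19:7522626-7534009), the calcium channel TRPML1, was at 29.5 CPM in Bulk against 16.5 (Claret), 16.4 (eGFP) and 14.5 (Violet). The highest slow-cycling value was well under Bulk, and the ratios of -0.83 (-1.06 to -0.62), -0.84 (-1.07 to -0.62) and -1.02 (-1.26 to -0.80) passed 1.5-fold in each comparison and the 2-fold call in Violet. That call was narrow, since with summed counts in place of scaled library sizes the Violet ratio was -0.97.

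The 8 hydrolase genes spread in both directions. CTSL (ENSG00000135047, chr9:87725519-87731393), the cysteine protease cathepsin L, stood at 96.6 CPM in Bulk against 207 (Claret), 199 (eGFP) and 187 (Violet), with log2 ratios of 1.10 (1.02 to 1.19), 1.04 (0.96 to 1.13) and 0.95 (0.86 to 1.04). Its relative CTSB (chr8:11842524-11869448) stood at 359 CPM in Bulk against 619.6, 662 and 589, with 0.79 (0.74 to 0.83), 0.88 (0.84 to 0.93) and 0.72 (0.67 to 0.76). These cysteine cathepsins were higher in each slow-cycling library, CTSL past 2-fold in Claret and eGFP and CTSB past 1.5-fold throughout. With log2(FPKM + 1) the CTSL ratio in eGFP was 0.9993, just under the 2-fold call. Under a 10 CPM filter the CTSL ratio in Violet was 1.03, past that call. HEXA, a subunit of the ganglioside-degrading hexosaminidase, passed 1.5-fold in eGFP alone (0.54, 0.63 and 0.49), and with log2(FPKM + 1) that ratio was 0.46.

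GLA (ENSG00000102393, chrX:101397803-101408012), the alpha-galactosidase deficient in Fabry disease, was the lowest member by median ratio over the 3 comparisons. Its 31.3 CPM in Bulk stood against 18.3 (Claret), 16.0 (eGFP) and 14.6 (Violet), with log2 ratios of -0.78 (-0.99 to -0.57), -0.97 (-1.20 to -0.75) and -1.10 (-1.33 to -0.87). Bulk was the highest of the 4 libraries, and Violet passed the 2-fold call. The aspartic protease gene CTSD had ratios of 0.22, 0.22 and 0.41, CTSZ had -0.29, -0.28 and -0.17, CTSA had -0.30, -0.13 and -0.01, and the sialidase gene NEU1 had 0.06, 0.06 and 0.15. None of these 4 passed a rule, and CTSD shares 47.9% of its 31-base words with other genes.

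The 3 V-ATPase subunits among the members all had negative ratios. ATP6V0D1 (chr16:67438014-67481237), a subunit of the membrane sector, was at 103 CPM in Bulk against 68.5 (Claret), 60.2 (eGFP) and 62.1 (Violet), with log2 ratios of -0.58 (-0.70 to -0.48), -0.77 (-0.89 to -0.65) and -0.72 (-0.84 to -0.61). ATP6V1A, the catalytic subunit, was at -0.47, -0.43 and -0.51, and ATP6V1H, a regulatory subunit, at -0.12, -0.30 and -0.19. ATP6V0D1 passed 1.5-fold in eGFP and Violet, and the others passed neither rule. Over all 20 tested genes of the pump, including 17 that are not members, 14 lay below 0 and 6 above in each comparison, with medians of -0.30, -0.29 and -0.22. Of all genes, 49.6%, 49.3% and 50.7% lay above 0. At 1.5-fold, 3, 4 and 4 of the 20 were lower, near the background share (all genes: 16.7%, 17.9% and 16.6%). By the same rule 1, 1 and 2 were higher (all genes: 19.8%, 20.5% and 20.8%).

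**Figure D4:**
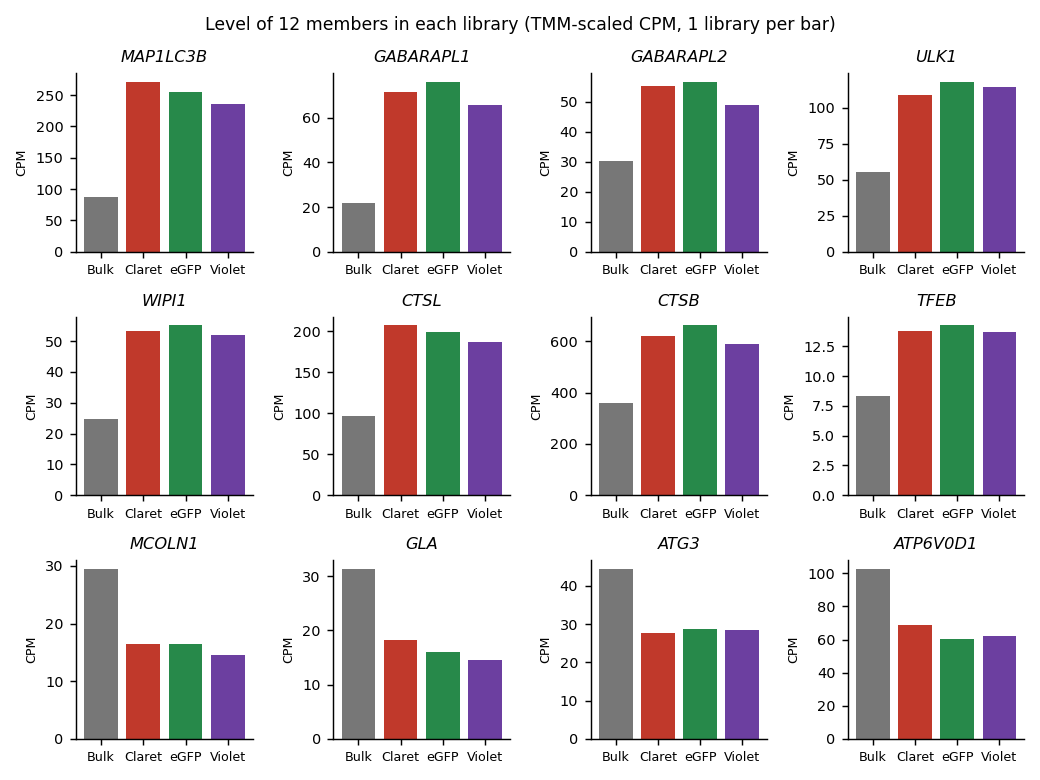
TMM-scaled CPM of 12 members in Bulk, Claret, eGFP and Violet, with 1 bar per library and no error bar because each group has 1 library. In the first 8 panels (MAP1LC3B, GABARAPL1, GABARAPL2, ULK1, WIPI1, CTSL, CTSB and TFEB) Bulk is the lowest bar, and in the last 4 (MCOLN1, GLA, ATG3 and ATP6V0D1) it is the highest.

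The 3 ways of marking slow-cycling cells gave close values for nearly all members. Between Claret and eGFP 1 member was called, GABARAP, at a log2 ratio of -1.18 (-2.36 to -0.32) from 13 and 30 reads, where 0.761% of all genes were called in either direction. That call was lost without a filter on low counts and with log2(FPKM + 1), and the gene was not tested under a 10 CPM filter. No member was called between Claret and Violet (all genes: 0.802%) or between eGFP and Violet (1.01%). At an adjusted p under 0.05 with no fold threshold, 6 members differed between Claret and eGFP (all genes: 12.6%), 11 between Claret and Violet (17.4%) and 10 between eGFP and Violet (17.2%). Leaving GABARAP aside, the differences were at most 0.29 in log2.

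Among those small differences, MAP1LC3B was highest in Claret, by 0.21 (0.14 to 0.27) over Violet, and CTSB was highest in eGFP, by 0.17 (0.13 to 0.21) over Violet. CTSD and CTSA were highest in Violet among the slow-cycling libraries. The log2 ratio of Claret to Violet was -0.19 (-0.25 to -0.14) for CTSD and -0.29 (-0.37 to -0.20) for CTSA. Reads alone give these intervals, and the spread between cultures was not measured.

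The wider autophagy and lysosome system was read from 155 further genes, of which 144 were tested. They fell to both sides like the transcriptome, with median log2 ratios of 0.05 (Claret), 0.03 (eGFP) and 0.11 (Violet). By the 2-fold call 10, 11 and 11 of them were higher (all genes: 11.2%, 11.9% and 11.6%) and 3, 3 and 1 were lower (6.72%, 7.64% and 6.91%). At 1.5-fold 27, 30 and 29 were higher (all genes: 19.8%, 20.5% and 20.8%) and 11, 16 and 16 lower (16.7%, 17.9% and 16.6%). Read against those shares of all genes, the counts among the 144 were near or under the background. Single lists below are small, and their counts lie on both sides of those shares. In the autophagy machinery list, 9 (Claret), 11 (eGFP) and 7 (Violet) of 29 genes were 1.5-fold higher, above the background share. These counts include ATG9B, which passed the filter on low counts only through the slow-cycling libraries. The list was also chosen with earlier results of these data known, so no conclusion about it is drawn from that excess.

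Of 29 other autophagy machinery genes, the 2-fold call found 5 (Claret), 4 (eGFP) and 4 (Violet) higher (all genes: 11.2%, 11.9% and 11.6%). None was lower (all genes: 6.72%, 7.64% and 6.91%). DEPP1, a FOXO-induced gene, stood at 9.01 CPM in Bulk against 20.4 (Claret), 24.3 (eGFP) and 35.5 (Violet), so that its level in Violet was above that in Claret. TP53INP1, a p53-induced LC3-binding protein, had ratios of 1.45, 1.43 and 1.51 (0.83, 0.81 and 0.85 with log2(FPKM + 1), under the call), and MAP1LC3B2, a near copy of MAP1LC3B, had 1.56, 1.72 and 1.61, with 18.6% of its 31-base words shared. ATG9B, a scramblase related to ATG9A, had 4 reads in Bulk against 70, 82 and 56, with ratios of 3.49 (2.60 to 5.94), 3.80 (2.93 to 6.25) and 3.28 (2.37 to 5.73). It passed the filter on low counts only through the slow-cycling libraries, being at 0.254 CPM in Bulk and at most 5.16 CPM elsewhere, and on the scale log2(FPKM + 1) its ratios were 0.66, 0.79 and 0.57. Of 14 other receptors, 1 was called higher in Claret and in eGFP and none in Violet (all genes: 11.2%, 11.9% and 11.6%). That gene, CCPG1, marks endoplasmic reticulum for autophagy and was named after its values were seen (1.23, 1.21 and 0.96, with 43.3% of its words shared).

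Among 23 other lysosomal membrane genes, 2, 4 and 3 were called higher (all genes: 11.2%, 11.9% and 11.6%) and none lower (6.72%, 7.64% and 6.91%). LAMP3, a LAMP relative known from dendritic cells, had 16 reads in Bulk against 101, 83 and 102 (2.41, 2.23 and 2.53), and the two-pore channel gene TPCN1 had 1.04, 1.17 and 1.22, of which the first was 0.98 after the GC correction. LAMP3 thus rose where LAMP1 and LAMP2 were level, and TPCN1, an ion channel of the endolysosome, rose where the channel gene MCOLN1 fell. Their relatives TPCN2 (-0.39, -0.29 and -0.30) and MCOLN3 (0.39, 0.30 and 0.37) had the opposite signs, and MCOLN2 lay near 0 (0.06, 0.06 and -0.14). The 41 other hydrolase genes gave 2, 2 and 4 higher calls (11.2%, 11.9% and 11.6%) and 1 lower call in each comparison (6.72%, 7.64% and 6.91%). That gene was ARSB, the sulfatase of dermatan sulfate, at 34.6 CPM in Bulk against 10.8, 11.8 and 11.1 (-1.66, -1.55 and -1.64). CTBS, a chitobiase, was higher at 1.04, 1.08 and 1.12, with 37.4% of its words shared, and lost the call with log2(FPKM + 1) (0.86, 0.89 and 0.91).

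The remaining lists had negative medians. The 17 other V-ATPase genes gave no higher call (all genes: 11.2%, 11.9% and 11.6%) and 1 lower call, ATP6V0E2 in eGFP (-1.09, all genes: 7.64%). The 6 genes that sort enzymes to the lysosome gave no higher call (all genes: 11.2%, 11.9% and 11.6%) and no lower call (6.72%, 7.64% and 6.91%). With 6 genes, that lack of calls cannot be set apart from those shares. The 6 genes had medians of -0.31, -0.38 and -0.22, but the log2 ratios of their summed levels were -0.01, 0.05 and 0.17. Of 14 genes that dock mTOR at the lysosome or control TFEB, 2 were called lower in Claret, 1 in eGFP and none in Violet. All genes were called lower at 6.72%, 7.64% and 6.91%, and the medians of the 14 were -0.27, -0.22 and -0.18. The called genes were MTOR itself, at 92.1 CPM in Bulk against 43.1, 51.6 and 47.8 (-1.09, -0.84 and -0.95), and FNIP2, a partner of folliculin (-1.02, -1.10 and -0.67). These last 3 genes were named after their values were seen.

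**Figure D5:**
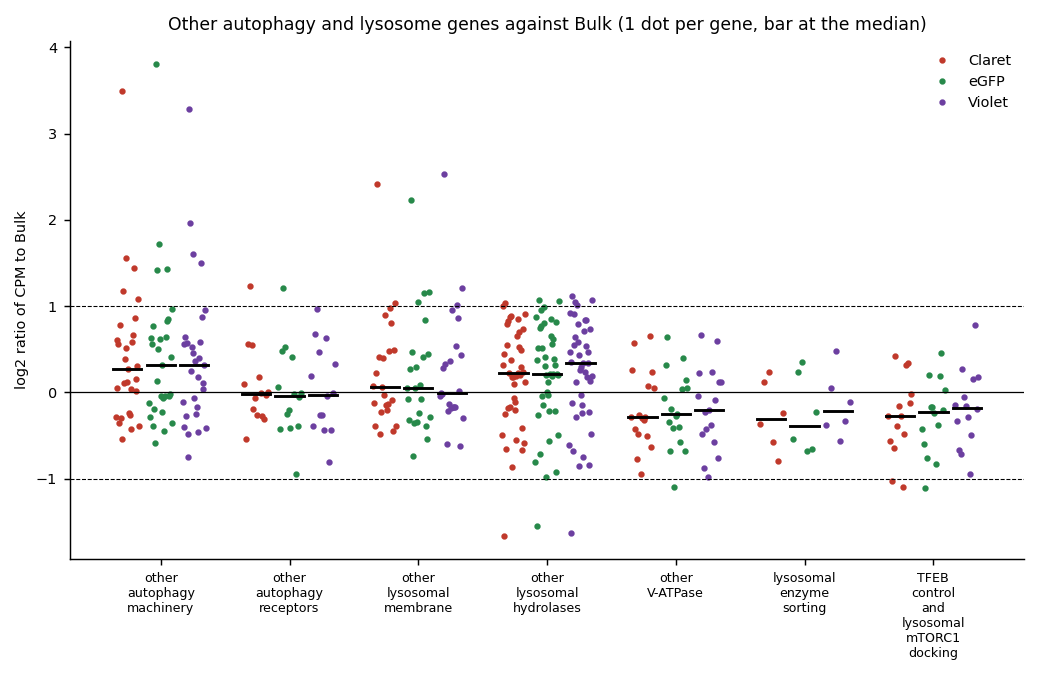
Log2 ratio of CPM against Bulk for each of the 144 other autophagy and lysosome genes tested, 1 dot per gene, by list and library, with a black bar at the list median and dashed lines at 1 and -1. Autophagy machinery and hydrolase medians lie above 0 (0.22 to 0.34), and those of V-ATPase, sorting and mTOR docking genes below 0 (-0.38 to -0.18).

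Since TFEB and its relatives act through the E-box, the promoters of the members were searched for it in the RefSeq promoter table (GRCh38.p14, from 250 bases before to 50 after each start site). Promoters were found for 37 of the 43 genes, 48 promoters in all, and the 6 genes without an entry were ATP6V1A, ATP6V1H, CTSB, HEXA, LAMP2 and RB1CC1. The longer word TCACGTG, on either strand, was in 8 of the 48 member promoters (16.7%), against 3.71% of the 35116 promoters in the table and 5.15% of the 15142 promoters of genes tested. It contains CACGTG, which was in 16.7% of member promoters and 7.26% of all. The 8 promoters belong to ATG14, ATG3, ATP6V0D1, CTSA, CTSD, LAMP1, MCOLN1 and NEU1. They are printed because they show which members carry the word, 5′ to 3′ along the gene's own strand, with the core CACGTG in capitals. Where a promoter other than that of LAMP1 holds more than 1 core, 1 is shown. The stretches of CTSA, CTSD, ATP6V0D1, ATG3 and ATG14 overlap exons of GENCODE 29, although they lie before the start sites of the promoter table.
LAMP1: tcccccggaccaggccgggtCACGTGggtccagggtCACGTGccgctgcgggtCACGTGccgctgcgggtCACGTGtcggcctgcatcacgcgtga
MCOLN1: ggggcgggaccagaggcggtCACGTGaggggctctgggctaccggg
NEU1: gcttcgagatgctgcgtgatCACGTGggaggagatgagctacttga
CTSA: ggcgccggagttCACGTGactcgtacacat
CTSD: gccggccgcgccCACGTGaccggtccgggt
ATP6V0D1: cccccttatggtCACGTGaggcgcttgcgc
ATG3: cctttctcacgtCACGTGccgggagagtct
ATG14: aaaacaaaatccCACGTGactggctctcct

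The LAMP1 stretch of 96 bases (chr13:113297027-113297122, plus strand) holds 4 of the 6 cores in that promoter, spaced 16, 17 and 17 bases apart, and ends 117 bases before the start site. The MCOLN1 core lies 41 bases before its start (chr19:7522563-7522608, plus strand) and the NEU1 core 126 bases before (chr6:31862922-31862967, minus strand). The others lie nearer or at like distances: CTSA 25 bases (chr20:45891298-45891327, plus), CTSD 47 (chr11:1763957-1763986, minus), ATP6V0D1 59 (chr16:67481199-67481228, minus), ATG3 18 (chr3:112561963-112561992, minus) and ATG14 21 (chr14:55411834-55411863, minus).

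No member that carries the word was higher by either fold rule (all genes at 1.5-fold: 19.8%, 20.5% and 20.8%). With 8 such genes, that count cannot be set apart from those shares. CTSB, higher at 1.5-fold in each comparison, had no promoter entry and was not searched. The 8 genes with TCACGTG had median log2 ratios of -0.23 (Claret), -0.13 (eGFP) and -0.05 (Violet), with 3 above 0 and 5 below in each comparison. The 28 tested members with a promoter entry and no TCACGTG had medians of 0.35, 0.34 and 0.27. Over all tested genes with a promoter entry, 729 with the word had medians of -0.14, -0.13 and -0.10 and 9625 without it -0.04, -0.04 and -0.03. Of the 8 genes with the word, MCOLN1 and ATG3 passed the 1.5-fold rule downward in each comparison and ATP6V0D1 in eGFP and Violet. The shares of all genes lower by that rule were 16.7%, 17.9% and 16.6%. No match was found in the 4 LC3 and GABARAP promoters, the 4 of the ULK1 complex, the 10 of the cargo receptors or the 7 of the TFEB family. A match describes letters in a window, not a bound site, and no match says only that the letters are absent there.

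The word TGANTCA, which takes in the site of the AP-1 factors named in the title of the series, was in 1 of the 48 member promoters, TFE3 (2.08%, against 7.71% of all promoters). The promoter of GABARAPL1, the member with the largest ratios, holds the palindrome TGACGTCA, known as the cAMP response element, 30 bases before its start (chr12:10212836-10212865, plus strand, in capitals).
GABARAPL1: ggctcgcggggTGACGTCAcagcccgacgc

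That palindrome, searched after the sequence of this promoter was read, was in 2 of the 48 member promoters (4.17%), GABARAPL1 and MITF, against 1.85% of all promoters and 2.68% of those of genes tested. The ratios of these genes against Bulk were of opposite sign. The printed GABARAPL1 stretch lies before the start site of the promoter table but inside the gene as placed above, where it overlaps a GENCODE 29 exon.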

How the data were processed

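RNA of 4 samples was sequenced, 1 library per group. The authors deposited whole-number read counts per gene (not normalized, per the file headers) and FPKM computed from them (library totals of 96.9% to 103.5% of the summed counts). HISAT2 2.0.5 and featureCounts 1.5.0-p3 are named in the submitters' processing notes, with no settings; use of strand and handling of multiply matching reads are not given in the sources used here. Gene starts and ends equal GENCODE 29 (GRCh38) for 58724 of 58735 genes, and coordinates are 1-based.

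Genes averaging at least 1 CPM were kept (14585). Libraries were scaled by TMM (edgeR 4.0.16, R 4.3.3), and log2 ratios used a prior count of 2. As 1 library per group leaves no residual degrees of freedom for edgeR's quasi-likelihood fit, reads of 2 libraries were compared by a two-sided exact conditional binomial test (scipy 1.17.1) with Benjamini-Hochberg adjustment over 14585 genes. Intervals are 95% exact (Clopper-Pearson) and, like the floor of 3 reads, cover counting error only. Reads were also simulated for Claret against Bulk over 14585 genes, with counting error alone around a shared profile, as the test assumes. There 50 of 50 genes were called at a log2 of 2 and 50 of 50 at 1.5. At -1.5 it was 43 of 50, at -2 it was 47 of 50, and 1 of 14385 unchanged genes was called. No variation between cultures was simulated, so these counts give no error rate for the deposited libraries.

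The 43 members and all lists were chosen with earlier results of these data known. Full values are given for members called at a log2 ratio of 1 in size, the 3 highest and 3 lowest by median ratio, the TFEB family, and members called between slow-cycling libraries; of the wider lists, genes called in all 3 comparisons, at most 5 per direction and list. Shared 31-base words were counted in GENCODE 29 transcripts. Alternatives were summed counts, DESeq2 1.42.0 size factors, no filter, a 10 CPM filter, a prior count of 0.5, a GC correction, log2(FPKM + 1) and groups from the treatment field.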

Additional observations from a re-analysis of the deposited data

Results flagged for a closer look

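GABARAP differed between Claret and eGFP by a log2 ratio of -1.18, from 13 and 30 reads, and was the one member whose exact test between slow-cycling libraries passed the 2-fold call. That call was lost without a filter on low counts and with log2(FPKM + 1), and the gene was not tested under a 10 CPM filter. DEPP1, one of the wider autophagy genes, differed between Claret and Violet by a log2 ratio of -0.79, past the adjusted p of 0.05 and 1.5-fold, with 20.4 CPM in Claret, 24.3 in eGFP and 35.5 in Violet. Each comparison is of 1 library with 1 library.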

How the results depend on the processing

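Of 162 comparisons of member counts and medians with an alternative, 139 stayed within the set limits, 22 moved and 1 reversed. Groups from the treatment field moved most. They gave, for Claret, 2 members higher and 4 lower by the 2-fold call, 4 and 11 at 1.5-fold, and a median of -0.14 (reversed). For eGFP they gave 0 higher by the 2-fold call, 0 and 0 at 1.5-fold, and a median of 0.066, and for Violet 0 and 0, and 0 and 0. Medians over the wider genes then reversed, to -0.11, -0.0082 and -0.023; in this setting the library titled Violet serves as Bulk. With the GC correction, 5 members were lower at 1.5-fold in Claret and 1 by the 2-fold call in eGFP (MCOLN1). With log2(FPKM + 1), 3 were higher in eGFP, and 2 higher and 1 lower in Violet. Summed counts and the 10 CPM filter each left 1 lower in Violet. GABARAP's call between Claret and eGFP was lost without a filter, at 10 CPM and with FPKM (0 members lower each). The causes of these other moves were not tested. Over alternatives that keep the titles, no median of a member role group changed sign, while 7 small ratios did, for ATG101, ATG7, ATG12, LAMP2 and CTSA. No paired analysis was possible because each group has 1 library, and for the same reason no library could be left out. With log2(FPKM + 1), which understates the change of low genes, the 2-fold calls of CCPG1 in Claret and eGFP (0.88 and 0.85), DEPP1 in Claret (0.95), LAMP3 in eGFP (0.89), MTOR in Claret (-0.93), ATP6V0E2 in eGFP (-0.94) and FNIP2 in Claret and eGFP (-0.77 and -0.82) were also lost. Read counts were too low to place GABARAP (13 to 30 reads) or ULK2 (at most 1 read).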
